A study of Homo sapiens with 24 samples.

Results

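Drug metabolism and conjugation enzymes oxidize, reduce, conjugate and export drugs, steroids, bile constituents and reactive aldehydes, and their transcripts were measured here in HepG2, an established human hepatocellular carcinoma cell line. The members were all gene symbols in the count files that name an enzyme of the cytochrome P450 families 1 to 4 (CYP), a UDP-glucuronosyltransferase (UGT), a sulfotransferase (SULT), a glutathione S-transferase (GST), an alcohol dehydrogenase (ADH), an aldehyde dehydrogenase (ALDH) or an aldo-keto reductase of the AKR1 group, or a transporter of the ABCC group. AKR1D1 was left out. This gave 130 of the 26475 symbols, chosen by name.

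The cells received inhibitors of the bromodomain and extraterminal domain (BET) proteins, with or without interferon gamma (IFNγ), and RNA depleted of ribosomal RNA was sequenced from 24 libraries in 8 groups of 3. The groups without IFNγ received the solvent DMSO, the pan-BET inhibitor ABBV-075 at 50 nM, the BD2-selective inhibitor ABBV-744 at 50 nM, or ABBV-744 at 500 nM. The other 4 groups received IFNγ alone, or IFNγ together with ABBV-075 at 50 nM, ABBV-744 at 50 nM or ABBV-744 at 500 nM. The treatment lasted 12 h for ABBV-075, the article lists DMSO among treatments of 24 h, so time may differ within that comparison, and the times for ABBV-744 and IFNγ and the dose of IFNγ are not given.

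All groups were the same cell line. The article calls its DMSO and ABBV-075 samples independent, and for the other groups the sources state triplicates without saying whether the cultures were separate. The p-values measure the spread between these samples, which in those groups may be technical.

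In the liver, phase I enzymes (CYP, ADH, ALDH and AKR1) add or expose a reactive group on a compound, and phase II enzymes (UGT, SULT and GST) attach glucuronic acid, sulfate or glutathione to it. Transporters of the ABCC group then carry many of the conjugates out of the cell. Hepatocytes are the main site of this chemistry, and BET proteins bind acetylated histones and help to maintain the transcription of many genes.

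Between 2978982 and 4304103 counts fell on genes in each library, with a median of 3462418.5. The members took 0.252% to 0.505% of them, and between 59 and 75 of the 130 had at least 1 count in a library. Levels are given as CPM, the library-scaled count unit of edgeR after TMM normalization, and changes as log2 fold changes with their standard error (SE) from edgeR's quasi-likelihood test. Adjusted p-values (Benjamini-Hochberg) were computed over all 11676 genes tested. The thresholds used here ask for an adjusted p of 0.05 or less together with a log2 fold change of 1.5 or more in size. Interactions with IFNγ were called by adjusted p alone, with no limit on size.

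Some libraries stood apart along the GC content of the genes. The GC contrast of a library, the mean log2 deviation of genes in the upper GC quartile minus that of genes in the lower quartile, averaged 0.20 in DMSO, 0.71 with ABBV-744 at 50 nM, 0.49 at 500 nM and 0.36 with IFNγ alone. It averaged -0.67 with IFNγ and ABBV-744 at 50 nM, -0.44 with IFNγ and 500 nM, and -0.33 with IFNγ and ABBV-075. Within the ABBV-075 group the libraries had -0.73, -0.40 and 0.18, so that replicate 3 lay apart from the others. The first principal component, with 45.7% of the variance, followed the same axis in part, its sign being set to match. At a GC contrast of 0.18, DMSO replicate 3 had a score of 27.7 on it and ABBV-075 replicate 3 one of -4.48. How much of this component is GC content was not tested. Members had a median GC content of 45.7% against 47.6% for all genes tested. Each comparison was therefore also run after a correction for GC content, and that value is given wherever it ends a call, turns a direction or moves a count by more than 1.5 times.

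Markers of the cell line and of the treatments were checked first. All 8 hepatocyte markers were tested, with a summed level of 19476 to 26877 CPM over the 24 libraries and APOB as the most abundant. Of 6 fibroblast and stellate markers, 5 were at the floor of 3 counts or fewer in every library, and their summed level was 1.15 to 7.33 CPM. PDGFRB, their most abundant gene and a growth factor receptor, averaged 6.71 CPM in DMSO and 1.75 with ABBV-075 (log2 fold change -1.94, SE 0.33, adjusted p = 2.82e-05), the only tested gene of this list. PDGFRB also passed the thresholds with ABBV-075 added to IFNγ (-1.75), and by adjusted p it changed with ABBV-744 by -1.26 at 50 nM and -1.21 at 500 nM, and with IFNγ by -0.94 (adjusted p = 0.176 after GC correction) and -1.48. The 4 endothelial markers reached a sum of at most 2.15 CPM and none was tested. Among 5 leukocyte markers, PTPRC and CD3E had 0 counts in every library, while LYZ, which encodes lysozyme, averaged 1553 CPM over all libraries and carried most of a summed level of 1104 to 1883 CPM. With ABBV-075, LYZ went from 1705 CPM in DMSO to 1190 (log2 fold change -0.52, SE 0.08, adjusted p = 7.78e-06) and CD68, a lysosomal protein and the other tested gene of this list, from 18.8 to 10.98 (log2 fold change -0.79, SE 0.20, adjusted p = 0.0015). Both also fell with ABBV-075 added to IFNγ, by adjusted p. CD68 averaged 21.3 CPM under IFNγ alone, 8.70 with ABBV-744 added at 50 nM and 9.56 at 500 nM, lower by adjusted p at both doses. LYZ averaged 1734 CPM under IFNγ alone, 1857 with ABBV-744 added at 50 nM and 1597 at 500 nM. LYZ fell there by adjusted p only after GC correction, which turned its direction at 50 nM. Without IFNγ neither gene changed by adjusted p with ABBV-744. Of the 8 hepatocyte markers, 3 fell and 2 rose by adjusted p with ABBV-075 (backgrounds 22.3% and 25%), and 2 fell and 3 rose with ABBV-075 added to IFNγ (27.3% and 26.2%). With ABBV-744, 0 fell and 2 rose at 50 nM (6.66% and 6.12%) and at 500 nM (5.64% and 5.74%). Added to IFNγ, ABBV-744 lowered 3 and raised 3 at 50 nM (22.4% and 24.2%) and at 500 nM (20.2% and 21.1%). Whether the LYZ transcripts come from the HepG2 cells was not tested. In bulk RNA, fewer cells of a type and less RNA per cell cannot be told apart.

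Treatment markers were checked for each agent. With ABBV-075, 1 of 4 BET inhibitor markers passed the thresholds, SERPINI1, which encodes the protease inhibitor neuroserpin, at 4.47 CPM in DMSO and 19.8 CPM with ABBV-075 (log2 fold change 2.15, SE 0.28, adjusted p = 5.56e-07). HEXIM1, an inhibitor of the transcription elongation factor P-TEFb, rose from 53.8 ± 3.15 to 145 ± 7.46 CPM (mean ± SD, n = 3). Its log2 fold change of 1.43 became 1.51 after GC correction, past the thresholds. MYC, a growth-promoting transcription factor, fell by 0.71 on the log2 scale. With ABBV-744, 0 of the 4 passed the thresholds at either dose without IFNγ. The backgrounds were 0.103% higher and 0.231% lower at 50 nM, and 0.0856% and 0.403% at 500 nM. By adjusted p 1 rose and 0 fell at 50 nM (backgrounds 6.12% and 6.66%), and 2 rose and 1 fell at 500 nM (5.74% and 5.64%). SERPINI1 averaged 4.39 CPM with ABBV-744 at 50 nM and 6.71 at 500 nM. With IFNγ present, SERPINI1 passed the thresholds at both doses of ABBV-744, and at neither after GC correction. IFNγ alone raised all 6 of the 8 interferon markers that could be tested past the thresholds, led by GBP1, a guanylate-binding protein (log2 fold change 4.89), the immunoproteasome subunit PSMB9 (4.49) and the transcription factor IRF1 (4.26).

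Of the 130 members, 54 were tested after the filter on low counts, 64 had 3 counts or fewer in every library, and 40 of these 64 had no count at all. The other 12 were not tested although they exceeded the floor in some library. Among the 54, 53 averaged at least 10 counts in DMSO and 43 did so in every group. Each count of changed members is set beside the share of all 11676 genes that passed the same rule in the same direction, called the background.

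The families differed in how many members had enough counts for a test. In the CYP family 8 of 36 members were tested and 24 were at the floor, and in the UGT family 3 of 19 were tested and 15 were at the floor. ALDH had 13 of 18 tested, AKR1 6 of 9, ABCC 7 of 12, GST 9 of 16, SULT 5 of 13 and ADH 3 of 7. The 12 members between the floor and the filter included CYP3A4, the main drug oxidase of adult liver, with at most 4 counts in a library. Its relative CYP3A5 reached at most 10 counts, CYP4F2, a fatty acid and vitamin K hydroxylase, 11, and GSTA2 14. ADH1B, an ethanol dehydrogenase, reached at most 5 counts and UGT2B4, which glucuronidates bile acids, 7. These were named after their counts were seen.

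Sequence shared between relatives limits what a low count means, because reads that align to several places or to exons shared by different genes were not counted. All 9 UGT1A members, whose transcripts share their last exons, had at most 1 count in any library, and between 22.9% and 65.6% of their 50-base words were unique in the transcriptome. CYP2D6, CYP2A6 and CYP2C19, drug oxidases named after their counts were seen, had 0 counts, with 47.1%, 60.1% and 64.4% of their words unique. SULT1A3 and SULT1A4, a duplicated pair, had 0 counts, with 0% and 0.23% of their words unique. AKR1C2 (52.7% unique), SULT1A2 (70.7%, named after its values were seen), SULT1A1 (73.5%), GSTA1 (74.0%), AKR1C1 (77.3%) and UGT2B10 (78.0%) were tested, but their levels are uncertain for the same reason. Little sequence was shared for SULT2A1, ABCC2, ADH4, ADH6, CYP1A1, CYP2U1, ALDH18A1 and ALDH1B1, of which CYP2U1 had the lowest share of unique words, 97.5%.

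Per kilobase of the longest annotated transcript, the mean level in DMSO was 169.8 CPM for AKR1C1, a steroid and carbonyl reductase, 127 for ADH5, which oxidizes the glutathione adduct of formaldehyde, and 99.9 for ALDH18A1, an enzyme of proline synthesis. It was 83.3 CPM per kilobase for ABCC2, 40.4 for SULT2A1 and 4.54 for ADH4. Levels of the CYP genes described here were low on this scale, with 5.83 for CYP4F12, 2.81 for CYP4F3 and 1.86 for CYP1A1. Reductases and dehydrogenases of the AKR1, ALDH and ADH families held most of the members' summed CPM.

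ABBV-075 lowered more members than any other single agent. Without IFNγ, 9 of the 54 tested members fell past the thresholds, or 16.7%, against 3.42% of all genes tested. No member rose past them, where the background was 1.19%. That count of 0 was the same with DESeq2, and 5 members were higher at an unadjusted p below 0.05. By adjusted p alone 29 members fell (background 22.3%) and 5 rose (background 25%). The median log2 fold change was -0.59 over the 54 members and 0.04 over all genes, and 43 members had a negative value. Requiring at least 10 counts in every library left 5 members past the lower threshold. That filter tests fewer members and fewer genes. Its counts, here and below, are therefore not on the scale of the 54 members or of the backgrounds given.

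Under IFNγ, added ABBV-075 lowered 11 members past the thresholds (background 4.2%) and raised 1 (background 2.52%). By adjusted p alone 34 fell (background 27.3%) and 3 rose (background 26.2%). The median was -0.69 for the members and 0.00 for all genes, with 45 negative values. A minimum of 10 counts in every library left 6 members past the thresholds downward and 0 upward. Whether IFNγ altered the effect of ABBV-075 was tested as an interaction, and edgeR called 0 members higher (background 0.0171%) and 0 lower (background 0.0257%). DESeq2 also called 0, and at an unadjusted p below 0.05 the numbers were 1 and 4.

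ABBV-744 lowered few members past the thresholds. At 50 nM without IFNγ, 1 member fell past them (background 0.231%) and 0 rose (background 0.103%). The single call, SULT1C4, was lost with DESeq2, after GC correction and without DMSO replicate 3, each of which gave 0. It was also lost without DMSO replicate 2 and without replicate 1 or 2 of the ABBV-744 group, where the count of 1 was ADH4. RLE or library size scaling gave 2. By adjusted p alone 10 members fell (background 6.66%) and 3 rose (background 6.12%). The member median was -0.02 and that of all genes -0.01. For the higher count of 0, DESeq2 also gave 0 and 6 members were higher at an unadjusted p below 0.05.

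At 500 nM without IFNγ, 1 member fell past the thresholds (background 0.403%) and 0 rose (background 0.0856%), again 0 with DESeq2, with 8 higher at an unadjusted p below 0.05. By adjusted p 12 fell (background 5.64%) and 4 rose (background 5.74%). The called member was ADH4, which the filter of at least 10 counts in every library removes. The member median of -0.02 lay beside 0.00 for all genes.

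With IFNγ present, ABBV-744 at 50 nM lowered 1 member past the thresholds (background 0.574%) and raised 0 (background 1.85%; DESeq2 0, and 4 at an unadjusted p below 0.05). The lower count was 2 with DESeq2, without the filter, or after GC correction, 0 with at least 10 counts in every library and 0 in a fit of the compared groups alone. It was 3 without IFNγ replicate 1 or without replicate 2 or 3 of the combined group, and 2 without IFNγ replicate 2 or 3. By adjusted p alone 22 members fell (background 22.4%) and 4 rose (background 24.2%), the lower share being 40.7%. After GC correction 20 fell (background 17.1%) and 4 rose (background 14.4%), of which 15 and 1 were the same members. The median was -0.35 for members and -0.04 for all genes, with 39 negative members.

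At 500 nM with IFNγ, ABBV-744 lowered 3 members past the thresholds (background 1.05%) and raised 0 (background 1.44%; DESeq2 0, and 3 at an unadjusted p below 0.05). The lower count was 5 without IFNγ replicate 1 and 0 with at least 10 counts in every library. By adjusted p 21 fell (background 20.2%) and 2 rose (background 21.1%). The higher count of 2 dropped to 1 without IFNγ replicate 2 or 3 or combined replicate 1, to 0 without combined replicate 2, and to 1 with DESeq2, with both strands counted together or in a fit of the compared groups alone. GC correction also gave 2 (background 15.8%), but 0 of them were the same members. Members had a median of -0.44 and all genes -0.02.

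**Figure D1:**
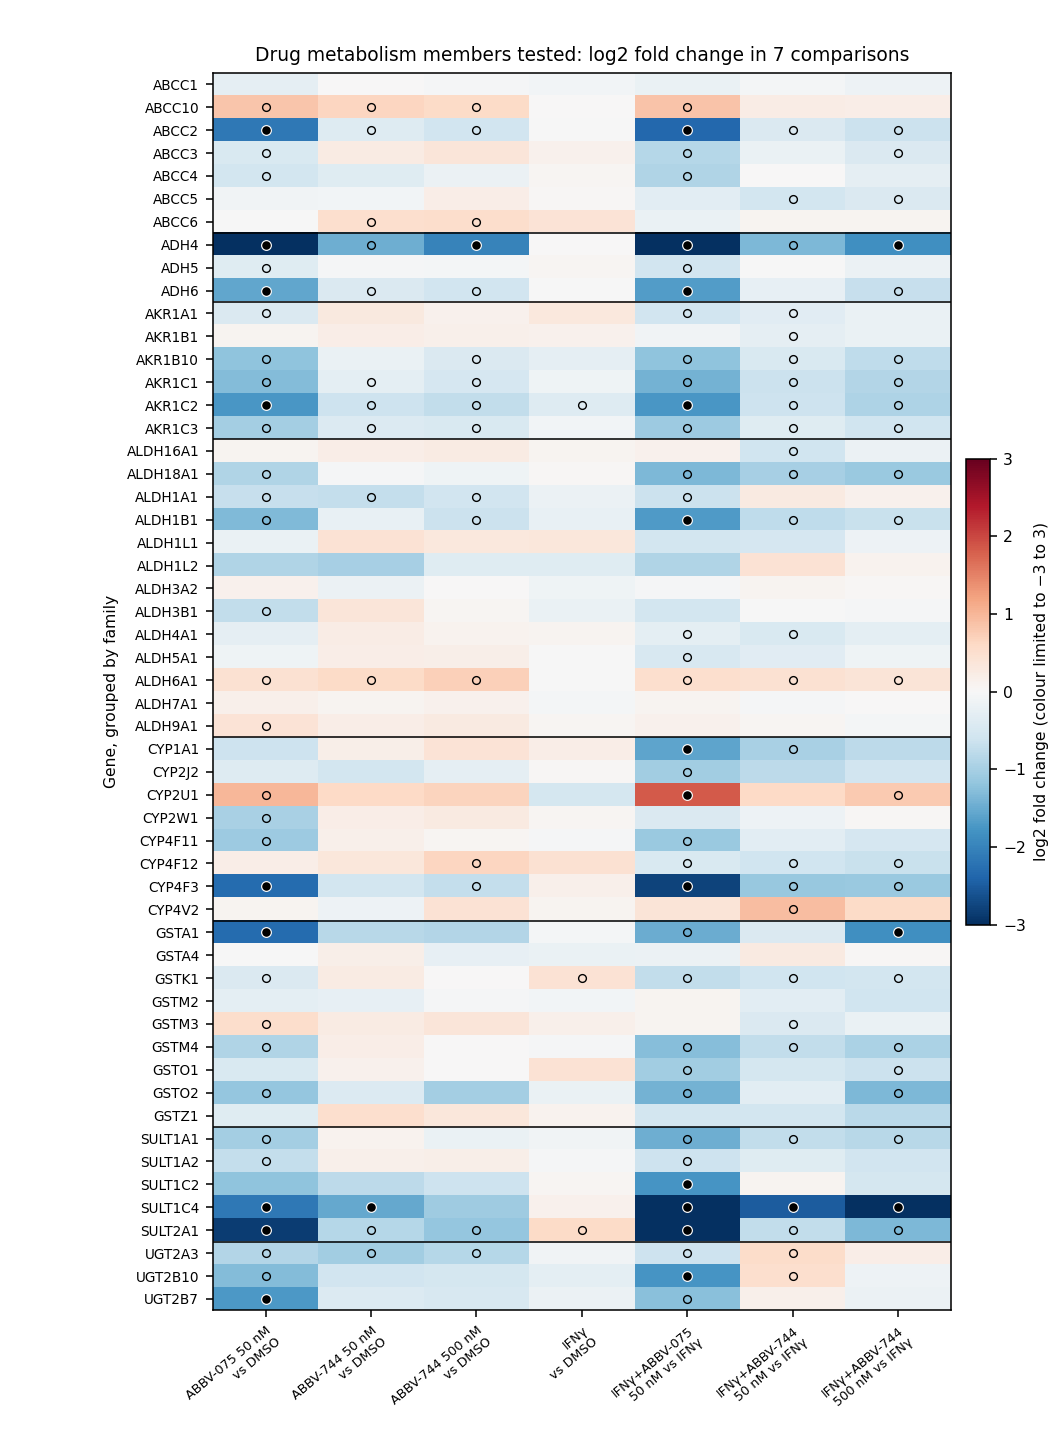
Log2 fold change of each of the 54 tested members (vertical axis, grouped by family) in 7 comparisons against DMSO or against IFNγ alone (horizontal axis), with 3 libraries a group. Filled dots mark members past the thresholds and open dots an adjusted p of at most 0.05; the ABBV-075 columns hold 9 and 12 filled dots, and the IFNγ column none.

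**Figure D2:**
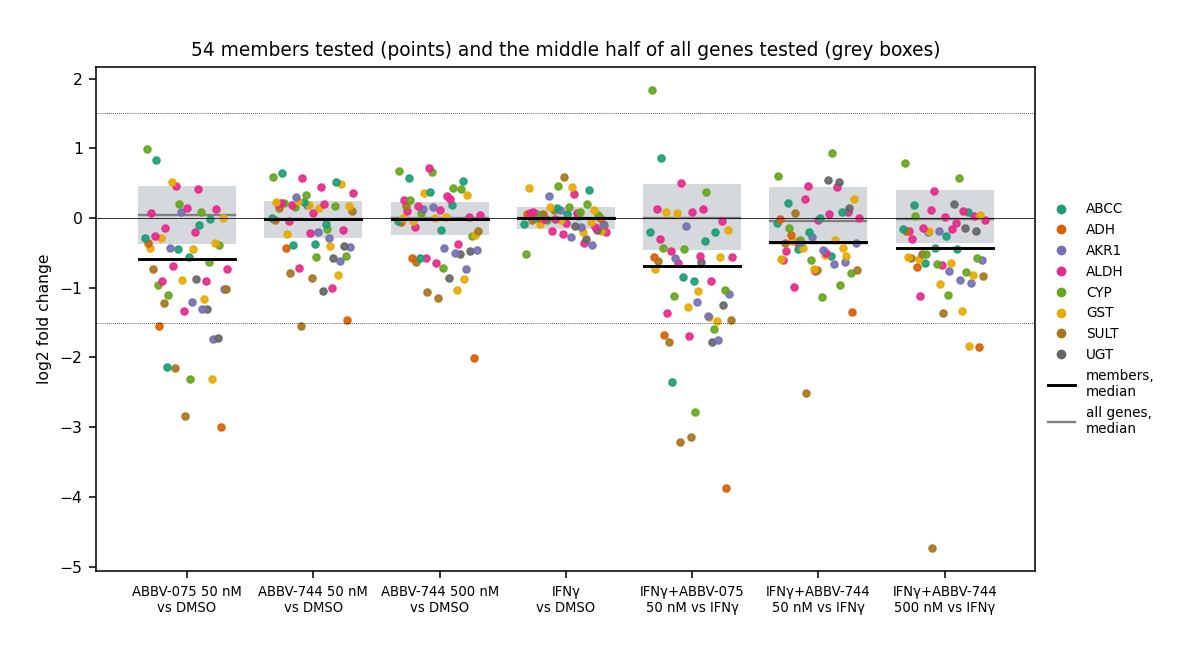
Log2 fold changes of the 54 tested members as points coloured by family, in the same 7 comparisons, with the lower to upper quartile of all 11676 genes as grey boxes. Black lines mark the member medians, -0.59 for ABBV-075 and -0.69 for ABBV-075 added to IFNγ, and grey lines the medians of all genes, 0.04 and 0.00.

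In all, 14 members passed the thresholds in at least 1 of these 7 comparisons. Of these, 13 did so downward and 1 upward, and 0 passed in opposite directions in a pair of comparisons. This tally over 7 comparisons has no background beside it, so it only lists the members. The comparisons with DMSO share the DMSO libraries and those with IFNγ share the IFNγ libraries, so their values are given side by side and were not correlated.

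The summed level of all members was taken in CPM, without a test. It was 4772, 4822 and 4746 CPM in the DMSO libraries and 2815, 2718 and 3131 with ABBV-075, a mean of 60.4% of DMSO. ABBV-744 left 91.0% of the DMSO mean at 50 nM and 85.8% at 500 nM. IFNγ alone had 4834, 4645 and 4764 CPM, or 99.3%, and its libraries overlapped those of DMSO. With IFNγ present, ABBV-075 left 55.2% of the IFNγ mean, ABBV-744 at 50 nM 78.0% and at 500 nM 71.7%. In these 6 inhibitor comparisons the libraries did not overlap with those of their controls.

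The promoters of SULT2A1 and ABCC2 are shown, and that of ADH4, the other marker of the set, is not. All 3 genes fell past the thresholds with ABBV-075, with and without IFNγ. Each sequence runs 5′ to 3′ on the strand of the gene, from 250 bases before its start to 50 bases after it, and comes from RefSeq on GRCh38.p14. Capitals mark a match, on either strand, to a reported motif. The SULT2A1 window is chr19:47886266-47886565 on the minus strand and the ABCC2 window chr10:99782390-99782689 on the plus strand.
SULT2A1: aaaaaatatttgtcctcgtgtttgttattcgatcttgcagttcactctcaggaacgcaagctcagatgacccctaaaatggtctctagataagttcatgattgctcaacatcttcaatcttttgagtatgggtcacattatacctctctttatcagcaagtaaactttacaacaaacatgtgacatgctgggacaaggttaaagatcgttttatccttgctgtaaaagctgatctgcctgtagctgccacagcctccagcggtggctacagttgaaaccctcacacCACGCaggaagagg
ABCC2: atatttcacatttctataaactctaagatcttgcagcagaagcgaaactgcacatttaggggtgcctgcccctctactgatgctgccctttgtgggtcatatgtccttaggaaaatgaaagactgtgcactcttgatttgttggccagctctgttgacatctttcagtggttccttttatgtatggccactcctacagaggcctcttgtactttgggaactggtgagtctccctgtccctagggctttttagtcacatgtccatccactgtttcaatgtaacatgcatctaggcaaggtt

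The motifs reported were GCGTG (the core bound by the aryl hydrocarbon receptor AHR), TGACNNNGC (the antioxidant element), AGGTCA (a nuclear receptor element) and CAAAGTCCA (an HNF4 core), and 1 other motif that was searched is not reported. All 14 members past the thresholds had a promoter of 300 bases in the reference, as did 103 of the 130 members. GCGTG was found in 3 of the 14 (SULT2A1, CYP1A1 and CYP2U1) and in 36.5% of all 35116 promoters. SULT1C2 and UGT2B10 held both TGACNNNGC and AGGTCA, which overlap there, and these occur in 13.3% and 13.8% of promoters. CAAAGTCCA was in 0 of the 14 and in 0.384% of all, and the ABCC2 window held none of these 4 motifs. A match describes these letters in this window only.

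Among the phase I genes, the alcohol dehydrogenases lie together on chromosome 4. ADH4, which oxidizes retinol and other alcohols, had 36, 36 and 49 counts with DMSO, 5, 5 and 3 with ABBV-075, 13, 14 and 7 with ABBV-744 at 50 nM and 10, 6 and 8 at 500 nM. Added to IFNγ, the inhibitors gave ADH4 counts of 3, 3 and 1 for ABBV-075, 13, 11 and 19 for ABBV-744 at 50 nM and 9, 9 and 8 at 500 nM, beside 36, 37 and 31 for IFNγ alone. Every inhibitor library lay below every control library, and ABBV-075 libraries were lower than ABBV-744 libraries on the CPM scale. The log2 fold change with ABBV-075 was -3.003 (SE 0.32, adjusted p = 1.71e-08). At 500 nM ABBV-744 gave -2.01 (SE 0.28, adjusted p = 2.03e-05), and at 50 nM -1.47 (SE 0.27, adjusted p = 0.000763), short of the threshold of 1.5. The 50 nM value passed it with RLE scaling (-1.52), with library size scaling (-1.56), without DMSO replicate 2 (-1.60) and without replicate 1 (-1.54) or 2 (-1.65) of its own group. With IFNγ, the 7 counts left by ABBV-075 against 104 in IFNγ alone gave a ratio 15.4-fold lower, with a counting interval of 7.22 to 39.3. With IFNγ, ABBV-744 at 500 nM gave -1.84 (SE 0.29, adjusted p = 1.28e-05) and at 50 nM -1.35 (SE 0.26, adjusted p = 0.000105), which passed 1.5 after GC correction (-1.86) or without combined replicate 3 (-1.64).

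ADH6, a further alcohol dehydrogenase, had 122, 127 and 125 CPM with DMSO, 44.4, 37.6 and 45.1 with ABBV-075, 87.1, 88.9 and 102 with ABBV-744 at 50 nM and 93.0, 82.0 and 76.2 at 500 nM. With IFNγ, ADH6 had 135, 113 and 125 CPM under IFNγ alone, 47.5, 38.1 and 30.1 with ABBV-075 added, 105, 109.6 and 101 with ABBV-744 added at 50 nM and 78.2, 71.5 and 80.0 at 500 nM. ABBV-075 libraries were the lowest in both settings, and the libraries at both ABBV-744 doses lay between them and the controls. ADH6 fell with ABBV-075 by 1.56 on the log2 scale (SE 0.12, adjusted p = 4.79e-11) and with ABBV-075 added to IFNγ by 1.68 (SE 0.12, adjusted p = 8.57e-12). Without ABBV-075 replicate 2 the former value was -1.48 and no longer past the thresholds.

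ADH5, transcribed in nearly all tissues, had 342, 337 and 335 CPM with DMSO, 269, 235 and 286 with ABBV-075, 309, 339 and 340.5 with ABBV-744 at 50 nM and 336, 295 and 347 at 500 nM. With IFNγ, ADH5 had 386, 329 and 342 CPM under IFNγ alone, 247, 239.9 and 227 with ABBV-075 added, 339, 372 and 338 with ABBV-744 added at 50 nM and 315, 313 and 302 at 500 nM. Only the ABBV-075 libraries lay below all libraries of the other groups without IFNγ, and with IFNγ they were again the lowest, followed by ABBV-744 at 500 nM. ADH5 fell by 0.36 (SE 0.09, adjusted p = 0.0012) and by 0.57 with IFNγ, and the neighbours ADH5 (chr4:99070978-99088801), ADH4 (chr4:99123657-99157792) and ADH6 (chr4:99202638-99219537) have separate values. Differences between genes were not tested.

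Of the aldo-keto reductases, AKR1C1 was the most abundant member of all. AKR1C1 had 1119, 1138 and 1077 CPM with DMSO, 447, 399 and 505 with ABBV-075, 855, 971 and 899 with ABBV-744 at 50 nM and 764, 783 and 806 at 500 nM. With IFNγ, AKR1C1 had 1033, 1013 and 1015 CPM under IFNγ alone, 401, 388 and 365 with ABBV-075 added, 597, 681 and 669 with ABBV-744 added at 50 nM and 568, 527 and 566 at 500 nM. In each setting the 4 groups formed the same order with no overlap, from the control through ABBV-744 at 50 nM and 500 nM down to ABBV-075. The log2 fold changes were -1.30 (SE 0.08, adjusted p = 4.88e-13) for ABBV-075, -0.29 (SE 0.08, adjusted p = 0.0213) for ABBV-744 at 50 nM and -0.50 (SE 0.08, adjusted p = 0.000126) at 500 nM. Added to IFNγ they were -1.41, -0.65 and -0.88, with adjusted p-values of 7.66e-14, 7.57e-07 and 7.37e-09. GC correction moved the 50 nM value without IFNγ to -0.11 (adjusted p = 0.523), which ends that call, and the value of ABBV-075 added to IFNγ to -1.59, past the threshold of 1.5.

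AKR1C2, which inactivates dihydrotestosterone, had 138, 136 and 122 CPM with DMSO, 40.5, 35.9 and 42.4 with ABBV-075, 85.9, 89.9 and 81.9 with ABBV-744 at 50 nM and 77.3, 73.7 and 86.8 at 500 nM. With IFNγ, AKR1C2 had 105, 97.4 and 102 CPM under IFNγ alone, 30.6, 34.8 and 24.4 with ABBV-075 added, 65.8, 63.3 and 67.1 with ABBV-744 added at 50 nM and 48.9, 53.98 and 56.6 at 500 nM. Every library given ABBV-075 lay below every library given ABBV-744, and these lay below their controls. AKR1C2 changed by -1.74 (SE 0.11, adjusted p = 4.88e-13) with ABBV-075 and by -1.76 (SE 0.12, adjusted p = 6.7e-13) with ABBV-075 added to IFNγ. ABBV-744 gave -0.62 and -0.73 at the lower and higher dose, and -0.63 and -0.93 with IFNγ, all with an adjusted p of at most 0.05. After GC correction the 50 nM values were -0.40 and, with IFNγ, -1.08. AKR1C3, a prostaglandin and androgen reductase next to both genes and named after its values were seen, fell by 1.02 with ABBV-075 (SE 0.08). Reads shared among these relatives leave the single values uncertain.

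Aldehyde dehydrogenases had the most tested members, 13. Against DMSO or IFNγ alone, 1 of them, ALDH1B1, fell past the thresholds, only with ABBV-075 added to IFNγ (background 4.2%). ALDH18A1 had 337, 345 and 323 CPM with DMSO, 171, 165 and 202 with ABBV-075, 312, 349.7 and 316 with ABBV-744 at 50 nM and 285, 315 and 316 at 500 nM. With IFNγ, ALDH18A1 had 373, 341 and 323 CPM under IFNγ alone, 137, 121 and 147 with ABBV-075 added, 180.3, 154 and 189 with ABBV-744 added at 50 nM and 189, 152 and 138 at 500 nM. Without IFNγ only ABBV-075 libraries stood well below DMSO, whereas with IFNγ all 9 libraries given an inhibitor lay far below the 3 given IFNγ alone. Its log2 fold change was -0.90 (SE 0.11, adjusted p = 9.75e-08) with ABBV-075 and -0.04 with ABBV-744 at 50 nM (adjusted p = 0.827). With IFNγ the values were -1.36 (SE 0.11, adjusted p = 4.24e-11) for ABBV-075, -0.99 (SE 0.11, adjusted p = 9.31e-08) for ABBV-744 at 50 nM and -1.11 (SE 0.11, adjusted p = 1.55e-08) at 500 nM.

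ALDH1B1, a mitochondrial acetaldehyde dehydrogenase, had 74.5, 64.6 and 62.0 CPM with DMSO, 22.4, 30.7 and 27.1 with ABBV-075, 58.4, 60.0 and 54.9 with ABBV-744 at 50 nM and 42.7, 48.1 and 38.0 at 500 nM. With IFNγ, ALDH1B1 had 58.7, 54.02 and 58.2 CPM under IFNγ alone, 18.6, 17.9 and 16.0 with ABBV-075 added, 33.5, 33.1 and 34.8 with ABBV-744 added at 50 nM and 36.6, 38.6 and 31.7 at 500 nM. The ABBV-075 libraries were lowest in both settings, and both ABBV-744 groups with IFNγ overlapped each other while lying below IFNγ alone. ALDH1B1 fell by 1.33 with ABBV-075 and by 1.69 with ABBV-075 added to IFNγ (SE 0.13, adjusted p = 2.7e-11). After GC correction the latter value was -1.44, below the size threshold. ALDH6A1, which acts in valine breakdown and was named after its values were seen, rose in all 6 inhibitor comparisons, by 0.46 with ABBV-075, 0.57 and 0.72 with ABBV-744, and by 0.50, 0.45 and 0.39 with IFNγ. After GC correction the last 2 values had adjusted p-values of 0.271 and 0.217.

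Among the cytochromes, CYP4F3 fell the most. CYP4F3, an omega-hydroxylase of leukotrienes and fatty acids, had 61, 60 and 54 counts with DMSO, 17, 6 and 8 with ABBV-075, 30, 33 and 30 with ABBV-744 at 50 nM and 27, 24 and 35 at 500 nM. With IFNγ, CYP4F3 had 49, 51 and 67 counts under IFNγ alone, 11, 10 and 4 with ABBV-075 added, 39, 19 and 23 with ABBV-744 added at 50 nM and 22, 31 and 17 at 500 nM. ABBV-075 libraries did not reach the level of any other group in either setting, and the ABBV-744 doses overlapped each other. CYP4F3 changed by -2.31 (SE 0.28, adjusted p = 1.84e-07) with ABBV-075 and by -2.78 (SE 0.30, adjusted p = 1.05e-08) with ABBV-075 added to IFNγ. ABBV-744 added to IFNγ gave -1.14 (SE 0.24, adjusted p = 0.000297) at 50 nM and -1.11 (SE 0.24, adjusted p = 0.000635) at 500 nM. Its neighbours on chromosome 19 were CYP4F12, with 0.20 (95% interval -0.17 to 0.58), and CYP4F11, named after its values were seen, with -1.10 (SE 0.22, adjusted p = 0.000151).

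CYP4F12, a fatty acid hydroxylase and the CYP member with the highest mean CPM, had 16.1, 22.0 and 18.8 CPM with DMSO, 18.8, 17.5 and 30.1 with ABBV-075, 26.8, 22.3 and 22.9 with ABBV-744 at 50 nM and 31.1, 31.7 and 27.3 at 500 nM. With IFNγ, CYP4F12 had 21.6, 27.7 and 29.4 CPM under IFNγ alone, 16.2, 19.3 and 22.3 with ABBV-075 added, 16.9, 19.8 and 14.9 with ABBV-744 added at 50 nM and 17.0, 17.5 and 15.1 at 500 nM. Without IFNγ both ABBV-744 groups lay above DMSO, and with IFNγ they lay below IFNγ alone. CYP4F12 rose with ABBV-744 at 500 nM (log2 fold change 0.65, SE 0.18, adjusted p = 0.0158) and fell when ABBV-744 was added to IFNγ, with -0.61 (SE 0.18, adjusted p = 0.00788) at 50 nM and -0.66 (SE 0.19, adjusted p = 0.00597) at 500 nM. The value at 50 nM without IFNγ was 0.33 (adjusted p = 0.222).

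CYP2U1, a fatty acid hydroxylase, was the single member past the thresholds upward. CYP2U1 had 22, 37 and 17 counts with DMSO, 53, 48 and 32 with ABBV-075, 29, 31 and 29 with ABBV-744 at 50 nM and 28, 29 and 41 at 500 nM. With IFNγ, CYP2U1 had 19, 17 and 9 counts under IFNγ alone, 58, 54 and 55 with ABBV-075 added, 27, 25 and 21 with ABBV-744 added at 50 nM and 24, 33 and 14 at 500 nM. In CPM its ABBV-075 libraries lay above the controls in both settings, without IFNγ at 9.62 or more against 8.21 or less, while their counts overlapped. With IFNγ they lay above all other groups on both scales. The log2 fold change was 1.83 (SE 0.27, adjusted p = 2.41e-06) for ABBV-075 added to IFNγ and 0.99 (SE 0.25, adjusted p = 0.00226) without IFNγ. Requiring at least 10 counts in every library removed it, since IFNγ replicate 3 held 9.

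CYP1A1, which oxidizes polycyclic aromatic hydrocarbons and is induced through AHR, had 19, 20 and 21 counts with DMSO, 10, 9 and 15 with ABBV-075, 19, 15 and 19 with ABBV-744 at 50 nM and 23, 21 and 21 at 500 nM. With IFNγ, CYP1A1 had 17, 16 and 26 counts under IFNγ alone, 5, 6 and 9 with ABBV-075 added, 14, 10 and 8 with ABBV-744 added at 50 nM and 15, 5 and 11 at 500 nM. The ABBV-075 libraries with IFNγ were below those of IFNγ alone, at counts of 9 or fewer. CYP1A1 fell there past the thresholds (log2 fold change -1.59, SE 0.36, adjusted p = 0.000583). The value was -1.33 after GC correction, -1.37 without IFNγ replicate 3 and -1.35 without combined replicate 1, all short of 1.5. Without IFNγ it was -0.63 (adjusted p = 0.116).

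**Figure D3:**
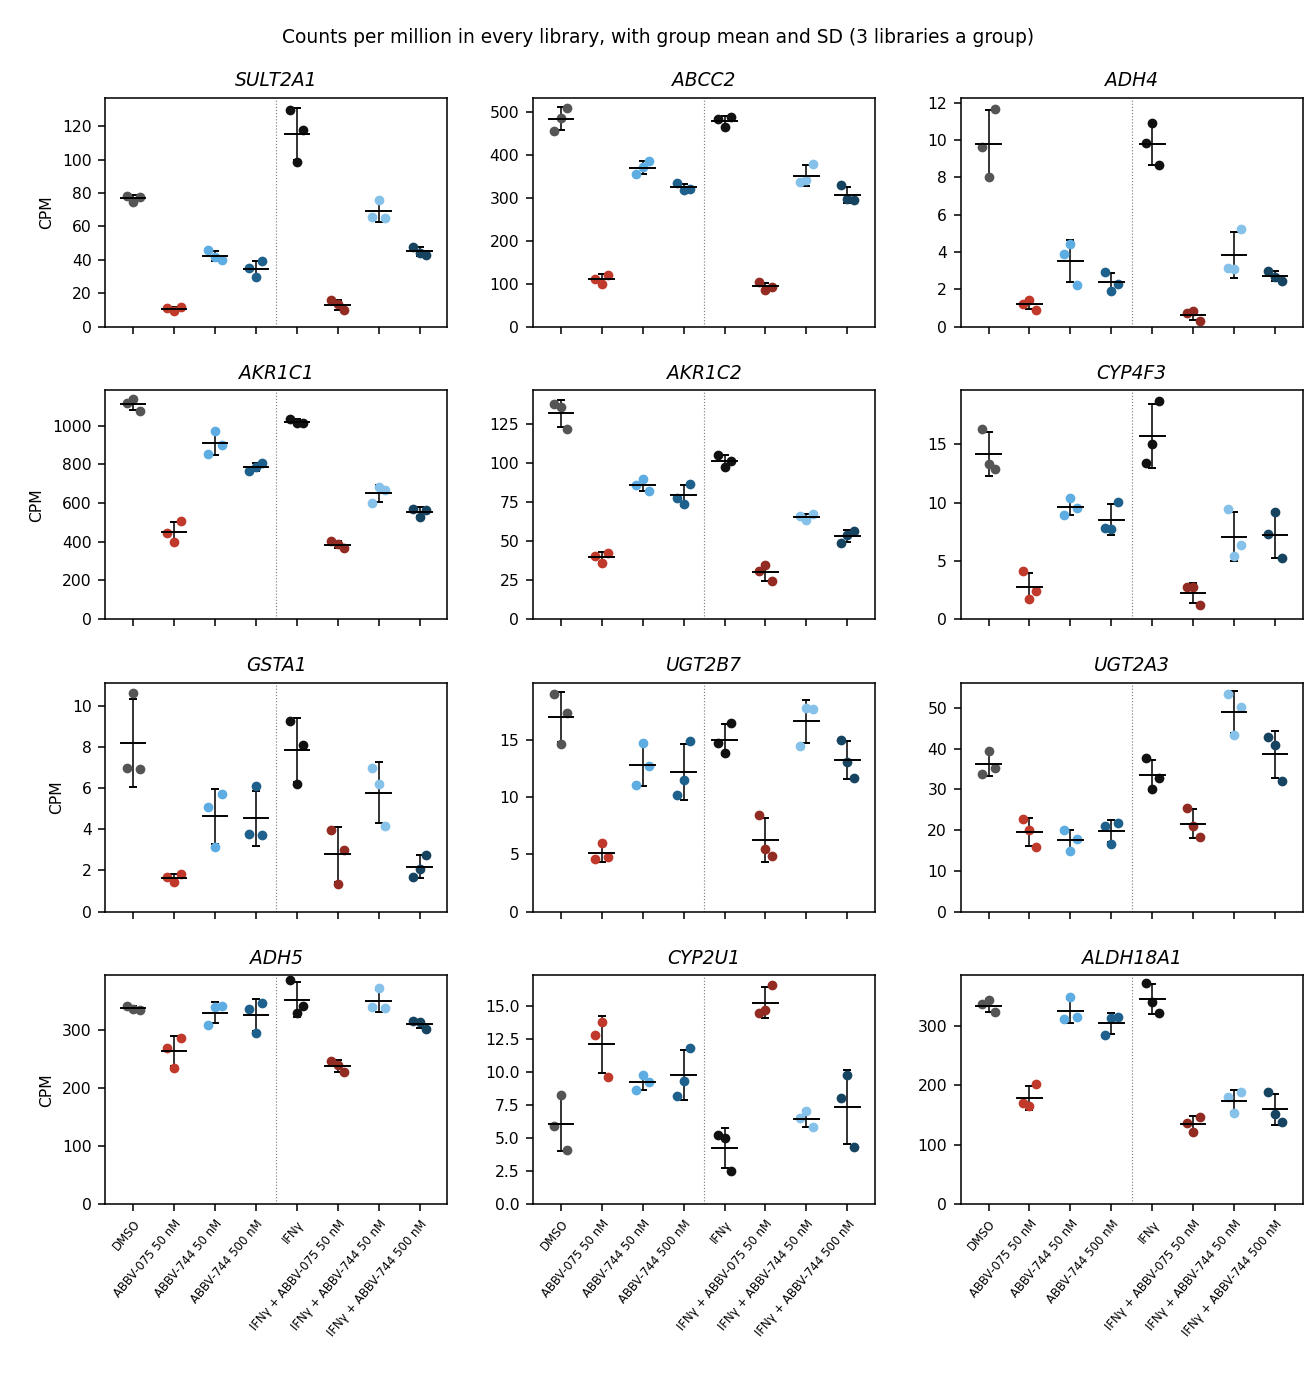
CPM of 12 members (vertical axes) in each of the 24 libraries by group (horizontal axis), with points for libraries and the mean ± SD of 3. SULT2A1 ranges from 9.48 to 11.7 CPM with ABBV-075 and from 74.8 to 78.5 with DMSO, while ADH5 stays between 227 and 386 CPM over all groups.

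Among the phase II genes, all 3 tested UGT members lie in a cluster on chromosome 4. UGT2B7, which glucuronidates morphine and steroids, had 71, 66 and 73 counts with DMSO, 19, 21 and 16 with ABBV-075, 37, 47 and 40 with ABBV-744 at 50 nM and 35, 36 and 52 at 500 nM. With IFNγ, UGT2B7 had 54, 47 and 59 counts under IFNγ alone, 34, 20 and 16 with ABBV-075 added, 60, 63 and 64 with ABBV-744 added at 50 nM and 45, 44 and 38 at 500 nM. ABBV-075 libraries had the lowest counts in both settings. The counts with ABBV-744 lay below those of DMSO, and with IFNγ they lay above IFNγ alone at 50 nM and below it at 500 nM, but in CPM each of these ABBV-744 groups overlapped its control. UGT2B7 changed by -1.72 (SE 0.22, adjusted p = 2.78e-07) with ABBV-075 and by -1.25 (SE 0.22, adjusted p = 2.07e-05) with ABBV-075 added to IFNγ. The latter value passed the size threshold after GC correction (-1.71) and without combined replicate 1 (-1.54).

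UGT2B10, which glucuronidates nicotine and other amines, had 88, 110 and 112 counts with DMSO, 43, 34 and 33 with ABBV-075, 68, 46 and 48 with ABBV-744 at 50 nM and 39, 50 and 86 at 500 nM. With IFNγ, UGT2B10 had 87, 62 and 66 counts under IFNγ alone, 30, 19 and 16 with ABBV-075 added, 140, 103 and 84 with ABBV-744 added at 50 nM and 72, 56 and 47 at 500 nM. In CPM the ABBV-075 libraries were the lowest in both settings, without IFNγ at 10.37 or less against 11.3 in the lowest ABBV-744 library, and with IFNγ the ABBV-744 libraries at 50 nM overlapped the top of IFNγ alone and reached above it. UGT2B10 changed by -1.31 (SE 0.23, adjusted p = 3.13e-05) with ABBV-075, and GC correction made that value -1.75. With IFNγ it changed by -1.77 (SE 0.26, adjusted p = 2.07e-06) under ABBV-075. ABBV-744 at 50 nM with IFNγ gave 0.51 (SE 0.20, adjusted p = 0.0417), which reversed to -0.28 (adjusted p = 0.252) after GC correction.

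UGT2A3, which glucuronidates bile acids, had 33.8, 39.5 and 35.3 CPM with DMSO, 22.7, 20.1 and 15.9 with ABBV-075, 19.98, 14.8 and 17.8 with ABBV-744 at 50 nM and 20.9, 16.7 and 21.9 at 500 nM. With IFNγ, UGT2A3 had 37.7, 30.1 and 32.7 CPM under IFNγ alone, 25.4, 20.9 and 18.4 with ABBV-075 added, 53.5, 43.5 and 50.3 with ABBV-744 added at 50 nM and 43.0, 40.9 and 32.0 at 500 nM. Without IFNγ the 3 inhibitor groups overlapped each other below DMSO, whereas with IFNγ the ABBV-744 libraries at 50 nM lay above IFNγ alone. UGT2A3 changed by -0.88 (SE 0.16, adjusted p = 4.86e-05) with ABBV-075, -1.05 (SE 0.16, adjusted p = 0.00015) with ABBV-744 at 50 nM and -0.87 (SE 0.16, adjusted p = 0.000546) at 500 nM. After GC correction these were -1.38, -0.67 and -0.67. With IFNγ, ABBV-075 gave -0.63 (SE 0.16, adjusted p = 0.00157) and ABBV-744 at 50 nM 0.55 (SE 0.15, adjusted p = 0.00284). GC correction made the ABBV-075 value -1.35 and reversed the other to -0.37 (adjusted p = 0.00737). The transcripts of these UGT genes had GC contents of 35.6%, 37.4% and 39.4% for UGT2A3, UGT2B10 and UGT2B7, below the 45.7% median of the members.

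Of the sulfotransferases, SULT2A1 was the most abundant. SULT2A1, which sulfates dehydroepiandrosterone and bile acids, had 78.5, 74.8 and 77.5 CPM with DMSO, 10.9, 9.48 and 11.7 with ABBV-075, 45.6, 41.5 and 40.02 with ABBV-744 at 50 nM and 35.2, 29.5 and 39.1 at 500 nM. With IFNγ, SULT2A1 had 129.6, 98.6 and 118 CPM under IFNγ alone, 15.7, 13.3 and 9.94 with ABBV-075 added, 65.8, 76.0 and 65.2 with ABBV-744 added at 50 nM and 47.9, 44.2 and 43.1 at 500 nM. The 4 groups of each setting did not overlap, and IFNγ libraries were higher than DMSO libraries. SULT2A1 changed by -2.84 (SE 0.15, adjusted p = 9.85e-15) with ABBV-075, -0.86 (SE 0.13, adjusted p = 8.68e-05) with ABBV-744 at 50 nM and -1.15 (SE 0.13, adjusted p = 6.2e-07) at 500 nM. Added to IFNγ, the inhibitors gave -3.14 (SE 0.14, adjusted p = 2.92e-16), -0.74 (SE 0.12, adjusted p = 1.39e-05) and -1.36 (SE 0.13, adjusted p = 5.9e-09) in the same order. IFNγ alone raised it by 0.58 (SE 0.12, adjusted p = 0.00189).

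SULT1C4, a sulfotransferase of phenolic compounds that is mostly fetal, had 11, 15 and 16 counts with DMSO, 2, 3 and 3 with ABBV-075, 2, 4 and 5 with ABBV-744 at 50 nM and 5, 5 and 6 at 500 nM. With IFNγ, SULT1C4 had 19, 12 and 8 counts under IFNγ alone, 1, 0 and 3 with ABBV-075 added, 4, 2 and 1 with ABBV-744 added at 50 nM and 0, 1 and 0 at 500 nM. All inhibitor libraries were below all control libraries, at 6 counts or fewer. The 8 counts with ABBV-075 against 42 with DMSO were 4.63-fold lower (counting interval 2.15 to 11.4). With IFNγ, the 4 counts under ABBV-075 against 39 were 10.1-fold lower (3.65 to 38.9). The 1 count under ABBV-744 at 500 nM against the same 39 was 35.3-fold lower (5.98 to 1431). ABBV-744 at 50 nM gave -2.50 (SE 0.51, adjusted p = 0.000237) with IFNγ and -1.54 (SE 0.47, adjusted p = 0.0305) without it. The call without IFNγ ended after GC correction (-1.41, adjusted p = 0.0514) and with DESeq2. It also ended without DMSO replicate 2 or 3 and without replicate 1 or 2 of the ABBV-744 group.

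SULT1C2, another phenol sulfotransferase, named after its values were seen, had 11, 7 and 6 counts under IFNγ alone and 3, 0 and 4 with ABBV-075 added. The groups did not overlap, but the counts were few. SULT1C2 fell past the thresholds there (log2 fold change -1.77, SE 0.67, adjusted p = 0.0261). SULT1A1, which sulfates small phenols, averaged 36.6 ± 1.27 CPM with DMSO and 18.2 ± 4.53 with ABBV-075 (mean ± SD, n = 3), a change of -1.01 (SE 0.16, adjusted p = 9.32e-06).

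Glutathione transferases had 9 tested members. GSTA1, which also isomerizes steroids, had 26, 48 and 29 counts with DMSO, 7, 5 and 6 with ABBV-075, 17, 10 and 18 with ABBV-744 at 50 nM and 13, 19 and 13 at 500 nM. With IFNγ, GSTA1 had 34, 21 and 29 counts under IFNγ alone, 16, 5 and 10 with ABBV-075 added, 29, 22 and 15 with ABBV-744 added at 50 nM and 5, 7 and 9 at 500 nM. Without IFNγ the lowest counts were those of ABBV-075, and with IFNγ those of ABBV-744 at 500 nM were as low as those of ABBV-075. GSTA1 changed by -2.30 (SE 0.35, adjusted p = 6.12e-06) with ABBV-075 and by -1.84 (SE 0.35, adjusted p = 0.000158) with ABBV-744 at 500 nM added to IFNγ. With ABBV-075 added to IFNγ it changed by -1.48 (SE 0.33, adjusted p = 0.000384), which passed the size threshold after GC correction (-1.81), without IFNγ replicate 2 (-1.64) and without combined replicate 1 (-1.86) or 3 (-1.55).

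GSTK1, a mitochondrial and peroxisomal transferase, had 64.9, 66.4 and 61.8 CPM with DMSO, 42.7, 49.96 and 50.8 with ABBV-075, 76.6, 73.8 and 76.9 with ABBV-744 at 50 nM and 62.2, 71.4 and 59.8 at 500 nM. With IFNγ, GSTK1 had 78.0, 89.2 and 92.9 CPM under IFNγ alone, 52.7, 53.8 and 49.1 with ABBV-075 added, 54.2, 58.2 and 60.8 with ABBV-744 added at 50 nM and 55.6, 58.7 and 62.7 at 500 nM. IFNγ libraries were above DMSO libraries, and every inhibitor added to IFNγ brought GSTK1 below IFNγ alone. GSTK1 changed by 0.43 (SE 0.10, adjusted p = 0.012) with IFNγ. The inhibitors added to IFNγ gave -0.74, -0.59 and -0.55 for ABBV-075 and the lower and higher dose of ABBV-744, with adjusted p-values of 1.14e-06, 4.17e-05 and 0.000123. GSTM3, a mu-class transferase, rose with ABBV-075 without IFNγ, by 0.52 (SE 0.12, adjusted p = 0.000948).

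Of the transporters, ABCC2 was both the most abundant and the most changed. ABCC2, which exports glucuronide and glutathione conjugates and bilirubin glucuronides into bile, had 456, 485 and 509.6 CPM with DMSO, 111, 98.2 and 121 with ABBV-075, 355, 370.1 and 385 with ABBV-744 at 50 nM and 334, 319 and 319.8 at 500 nM. With IFNγ, ABCC2 had 484, 463 and 487 CPM under IFNγ alone, 103, 85.9 and 92.5 with ABBV-075 added, 335, 340.5 and 378 with ABBV-744 added at 50 nM and 328, 297 and 294 at 500 nM. In both settings the 4 groups did not overlap and took the same order, with the control highest and ABBV-075 lowest. ABCC2 changed by -2.14 (SE 0.09, adjusted p = 3.55e-17) with ABBV-075, -0.39 (SE 0.08, adjusted p = 0.00397) with ABBV-744 at 50 nM and -0.58 (SE 0.08, adjusted p = 3.39e-05) at 500 nM. Added to IFNγ, the values were -2.35 (SE 0.09, adjusted p = 7.77e-18), -0.44 (SE 0.08, adjusted p = 0.000105) and -0.64 (SE 0.09, adjusted p = 1.77e-06).

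The other 6 tested ABCC members changed less. ABCC3, a basolateral exporter of glucuronides, fell with ABBV-075 by 0.45 (adjusted p = 0.022) and with ABBV-075 added to IFNγ by 0.85 (adjusted p = 8.91e-05). After GC correction the value without IFNγ had an adjusted p of 0.103. ABCC10, an exporter of lipophilic anions named after its values were seen, had 24.4, 23.1 and 26.0 CPM with DMSO, 39.6, 43.9 and 47.2 with ABBV-075, 42.0, 40.8 and 32.4 with ABBV-744 at 50 nM and 34.9, 40.4 and 34.5 at 500 nM. With IFNγ, ABCC10 had 19.9, 23.3 and 30.8 CPM under IFNγ alone, 46.7, 42.4 and 44.9 with ABBV-075 added, 31.1, 27.4 and 27.6 with ABBV-744 added at 50 nM and 29.3, 29.1 and 26.1 at 500 nM. Without IFNγ it lay above DMSO in all 9 libraries given an inhibitor, and rose by 0.83 (SE 0.14, adjusted p = 1.71e-05) with ABBV-075, 0.65 (SE 0.14, adjusted p = 0.00362) with ABBV-744 at 50 nM and 0.58 (SE 0.14, adjusted p = 0.00767) at 500 nM. The 50 nM value was 0.43 after GC correction. Added to IFNγ, ABBV-075 gave 0.86 (SE 0.14, adjusted p = 9.08e-06), while ABBV-744 gave 0.22 (adjusted p = 0.215) and 0.19 (adjusted p = 0.317) at the lower and higher dose, with 0.57 and 0.43 after correction, both then called by adjusted p. ABCC6, an ATP-releasing transporter of liver, rose with ABBV-744, by 0.51 (SE 0.12, adjusted p = 0.00584) at 50 nM, and that call ended after GC correction (0.29, adjusted p = 0.0615). At 500 nM its value was 0.53 (SE 0.12, adjusted p = 0.00339).

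By family, the summed CPM with ABBV-075 was smallest, relative to DMSO, in SULT. SULT sums were 136, 132 and 137 CPM with DMSO and 36.9, 34.2 and 47.8 with ABBV-075. UGT sums were 78.0, 80.6 and 81.6 and 38.1, 36.8 and 31.3, and ABCC sums 672, 695 and 721 and 301, 309 and 342. The most abundant genes of these families are SULT2A1, UGT2A3 and ABCC2. AKR1 sums were 1869.8, 1851 and 1771 and 878, 833 and 1016, ALDH sums 1253, 1307 and 1288 and 1026, 1015 and 1101, and GST sums 184, 194 and 184 and 146, 151 and 183. In all 8 families the ABBV-075 libraries lay below the DMSO libraries, and no test was made of the sums.

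Both compounds were given at 50 nM, which allows a direct comparison, although the time for ABBV-744 is not given. Without IFNγ, 4 members were lower with ABBV-075 than with ABBV-744 past the thresholds (background 2.24%) and 0 were higher (background 2.42%; DESeq2 0, and 2 at an unadjusted p below 0.05). The lower count was 9 after GC correction, or 16.7% (background 1.73%), of which 4 were shared. It was 2 with at least 10 counts in every library, and between 3 and 5 with 1 library left out. By adjusted p 28 members were lower (background 24.8%) and 1 higher (background 26.8%). The higher count was 2 with RLE or library size scaling, with the replicate block or without ABBV-075 replicate 1. It was 3 after GC correction (background 20.3%) and 0 in a fit of the compared groups alone. The median was -0.61 for members and -0.02 for all genes.

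The 4 members were SULT2A1, with a difference of -1.99 (SE 0.16, adjusted p = 1.77e-10), CYP4F3 with -1.76 (SE 0.31, adjusted p = 3.54e-05), ABCC2 with -1.75 (SE 0.09, adjusted p = 1.16e-14) and ADH4 with -1.54 (SE 0.40, adjusted p = 0.00221). CYP4F12 and UGT2A3 did not differ between the compounds in the uncorrected test. The 95% interval of the CYP4F12 difference was -0.50 to 0.25, and that of UGT2A3 -0.20 to 0.53. These intervals hold both small and moderate differences, so they do not show that the compounds act alike on these genes. After GC correction UGT2A3 did differ, by -0.71 (adjusted p = 0.000111).

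With IFNγ, 6 members were lower with ABBV-075 than with ABBV-744 at 50 nM past the thresholds (background 1.53%) and 0 were higher (background 0.394%; DESeq2 0, and 4 at an unadjusted p below 0.05). The lower count was 3 with at least 10 counts in every library. By adjusted p 22 were lower (background 15.3%) and 4 higher (background 10.8%). The 6 were SULT2A1 (-2.39), UGT2B10 (-2.28), ABCC2 (-1.90), SULT1C2 (-1.85), CYP4F3 (-1.64) and ADH4. For ADH4 the 7 counts against 43 were 5.99-fold lower, with a counting interval of 2.67 to 15.8. CYP2U1 was higher with ABBV-075 by 1.23 (SE 0.25, adjusted p = 5e-04). The members' median was -0.55 and that of all genes -0.05.

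**Figure D4:**
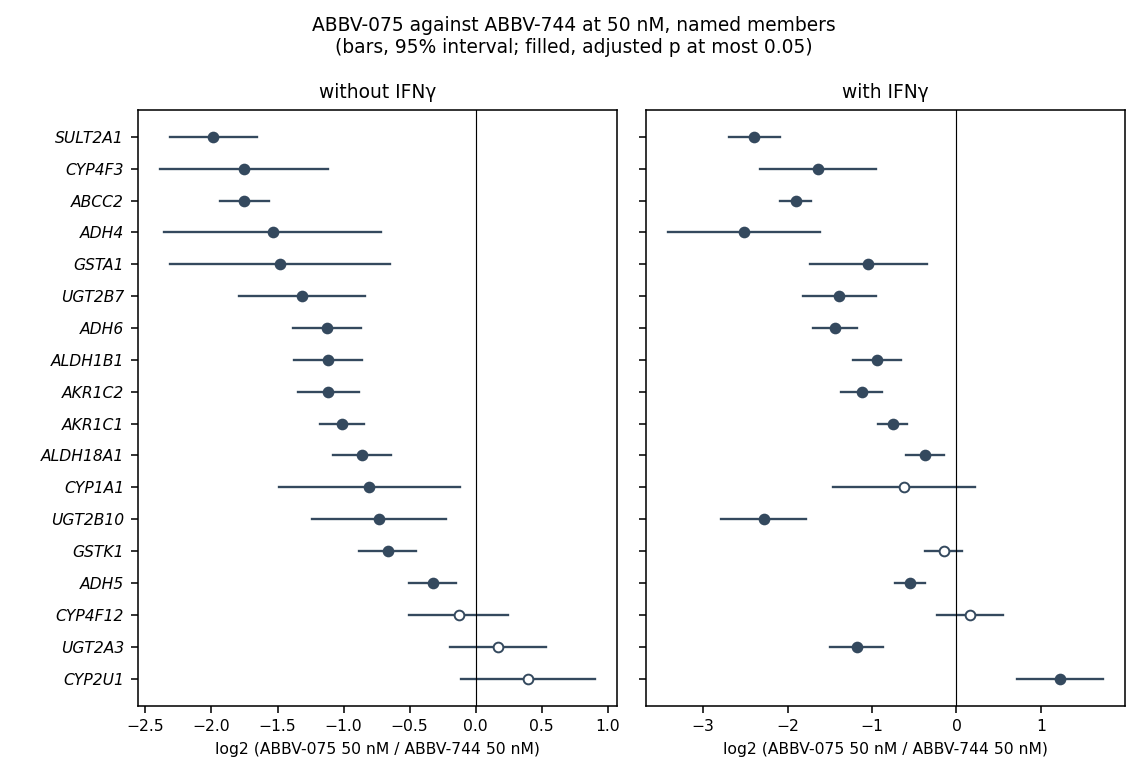
Log2 difference between ABBV-075 and ABBV-744 at 50 nM (horizontal axis, with 95% intervals) for 18 named members (vertical axis), without and with IFNγ, 3 libraries a group. Filled points have an adjusted p of at most 0.05; SULT2A1 lies at -1.99 without and -2.39 with IFNγ.

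Doses of ABBV-744 were tested against each other only without IFNγ. Between 500 and 50 nM without IFNγ, edgeR called 0 members higher (background 0%) and 0 lower (background 0.00856%), DESeq2 also 0, and 2 and 6 members differed at an unadjusted p below 0.05. By adjusted p alone 0 were higher (background 0.00856%) and 0 lower (background 0.0685%). The interval of the difference was -0.57 to -0.01 for SULT2A1, -0.36 to -0.02 for ABCC2 and -1.27 to 0.18 for ADH4. For the first pair of genes the interval lies below 0, but the adjusted p-values were 0.653 and 0.63. With IFNγ the doses were not tested against each other, and the CPM of SULT2A1 and of AKR1C1 was lower in all 3 libraries at 500 nM than in all 3 at 50 nM.

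With IFNγ alone, 0 members passed the thresholds and 3 passed by adjusted p. Past the thresholds 0 rose (background 0.831%) and 0 fell (background 0.00856%), as with DESeq2, and at an unadjusted p below 0.05 the numbers were 5 and 2. By adjusted p 2 members rose (background 2.08%), SULT2A1 and GSTK1, and 1 fell (background 0.188%), AKR1C2, with -0.38 (SE 0.10, adjusted p = 0.04). After GC correction AKR1C2 had -0.32 (adjusted p = 0.101). The median of the members and of all genes was 0.00.

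The effect of ABBV-744 differed with and without IFNγ for many genes, members included, and the GC contrast of the libraries differed in the same groups. By adjusted p alone, the interaction at 50 nM, the log2 fold change with IFNγ minus that without, was higher for 4 members (background 24%) and lower for 16 (background 22.4%). As shares of the members these are 7.41% and 29.6%. At 500 nM it was higher for 2 (background 15.9%) and lower for 12 (background 12.5%). After GC correction the counts at 50 nM were 2 higher, against 8.88% of all genes, and 10 lower, or 18.5%, against 9.64%, with 6 of the 20 members remaining. At 500 nM they were 0 higher, against 6.08%, and 11 lower, or 20.4%, against 7.13%, with 5 of the 14 remaining, so that 6 of the 11 passed only after correction. Library size scaling gave 10 lower at 50 nM and 7 at 500 nM, and DESeq2 gave 7 lower at 500 nM. Without combined replicate 1 at 500 nM the higher count was 1, and without combined replicate 2 the lower count was 7. The part of GC content in the interaction was not tested beyond this correction.

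The members that remained after correction at both doses were ALDH18A1, AKR1C1, CYP4F12 and GSTM3. For ALDH18A1 the interaction was -0.95 (SE 0.15, adjusted p = 2.74e-05) at 50 nM and -0.98 (SE 0.15, adjusted p = 0.000136) at 500 nM, and -0.70 and -0.73 after correction. For CYP4F12 it was -0.94 (SE 0.26, adjusted p = 0.00442) and -1.32 (SE 0.26, adjusted p = 0.00071), and -0.77 and -1.11 after correction. These genes thus had a lower level under the combination than the single agents gave, as their values by library above show. AKR1C1 had -0.36 and -0.38, and GC correction made them -0.87 and -0.71. With library size scaling the AKR1C1 value at 50 nM was -0.20 and did not pass. GSTM3 had -0.67 and -0.55, and the call at 500 nM ended with library size scaling (-0.46), without the filter (-0.54), without IFNγ replicate 3 (-0.50) and without combined replicate 2 (-0.51).

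Members that remained at a single dose were GSTK1 and ALDH1A1 at 50 nM and SULT1C4 at 500 nM. GSTK1 had -0.82 (SE 0.15, adjusted p = 7.85e-05) at 50 nM, and at 500 nM its value of -0.55 (adjusted p = 0.00605) became -0.37 (adjusted p = 0.0553) after correction. ALDH1A1, which makes retinoic acid, averaged 147 ± 18.4 CPM with DMSO and 88.9 ± 13.9 with ABBV-744 at 50 nM, but 129 ± 5.17 with IFNγ and 156 ± 4.28 with both (mean ± SD, n = 3). Its interaction was 0.99 (SE 0.21, adjusted p = 0.000507) at 50 nM and 0.46 after correction. At 500 nM it was 0.70, with 0.33 after correction (adjusted p = 0.137) and 0.48 without combined replicate 1, where it did not pass. SULT1C4 had -3.67 (SE 0.99, adjusted p = 0.00708), a fitted value that rests on a group with 1 count in all, and between -5.66 and -3.23 with 1 library left out. The UGT2A3 interaction of 1.60 at 50 nM became 0.30 (adjusted p = 0.23), and that of UGT2B10 turned from 1.09 to -0.03.

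**Figure D5:**
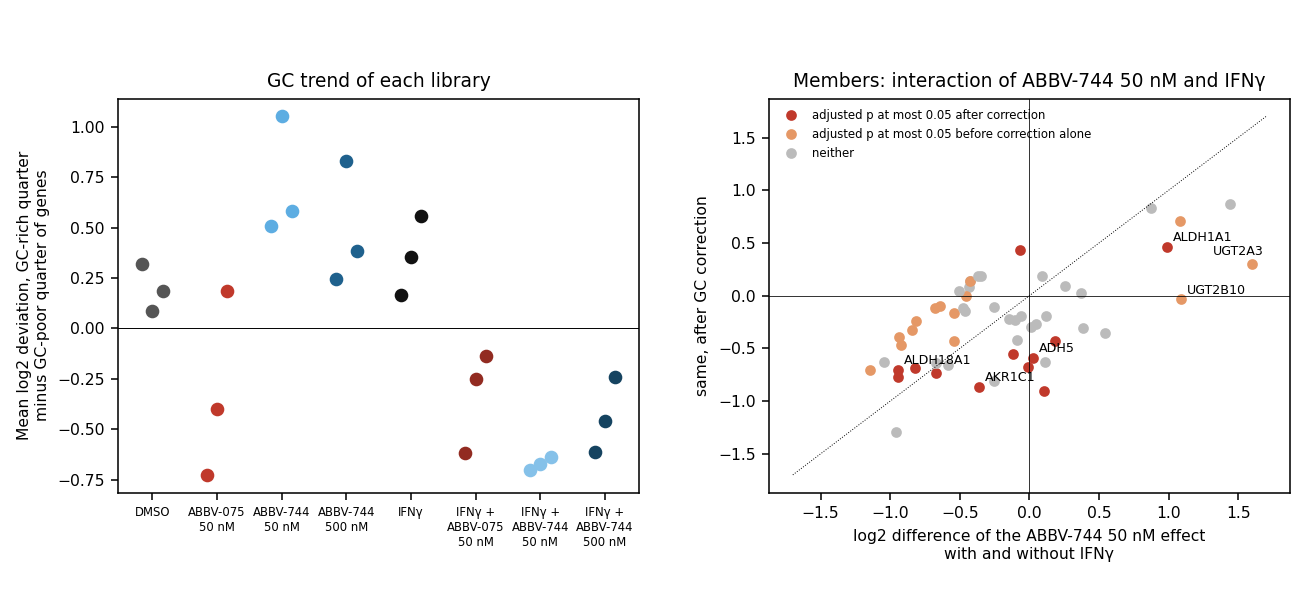
The left panel gives the GC contrast (log2, vertical axis) of each of the 24 libraries by group, and the right panel the interaction of ABBV-744 at 50 nM with IFNγ (log2) for the 54 tested members before (horizontal axis) and after (vertical axis) GC correction. Red points pass after correction, orange points before it alone and grey points neither; UGT2A3 moves from 1.60 to 0.30 and ALDH18A1 from -0.95 to -0.70.

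Genes that regulate or serve these enzymes were followed in lists. Of 14 regulators, 12 were tested, and 2 fell past the thresholds with ABBV-075 (background 3.42%) while 0 rose (background 1.19%). By adjusted p, 2 rose (background 25%) and 6 fell (background 22.3%). NR1H4, the bile acid receptor FXR, averaged 54.1 ± 5.45 CPM with DMSO and 3.80 ± 1.27 with ABBV-075 (mean ± SD, n = 3), a change of -3.81 (SE 0.19, adjusted p = 2.63e-15). With IFNγ, 3 regulators fell past the thresholds with ABBV-075 (background 4.2%) and 0 rose (background 2.52%). Among the 3 were NR1H4 (-3.59) and the xenobiotic receptor NR1I2 (-2.51), and GC correction left 2 past the thresholds. By adjusted p, 2 rose (background 26.2%) and 7 fell (background 27.3%). ABBV-744 took 0 regulators past the thresholds in any of its 4 comparisons with DMSO or IFNγ (backgrounds from 0.0856% to 1.85%). By adjusted p 3 rose and 2 fell at 50 nM (backgrounds 6.12% and 6.66%), and 2 rose and 2 fell at 500 nM (5.74% and 5.64%). With IFNγ 3 rose and 0 fell at 50 nM (24.2% and 22.4%), and 2 rose and 2 fell at 500 nM (21.1% and 20.2%). ABBV-744 lowered NR1H4 without IFNγ, with log2 fold changes of -1.10 (SE 0.14, adjusted p = 1.23e-05) at 50 nM and -1.15 (SE 0.14, adjusted p = 3.19e-06) at 500 nM. With IFNγ the values were -0.11 (adjusted p = 0.526) and -0.57 (adjusted p = 0.00142).

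The electron donors of the CYP system, POR and the cytochrome b5 group, were all tested, 4 of 4, and 0 passed the thresholds in any of the 7 comparisons. By adjusted p, 2 fell with ABBV-075 (background 22.3%), 3 with ABBV-075 added to IFNγ (27.3%), and all 4 with ABBV-744 added to IFNγ at 50 nM (22.4%) and at 500 nM (20.2%). Without IFNγ, 1 fell with ABBV-744 at 50 nM (6.66%) and 0 at 500 nM (5.64%), and IFNγ alone lowered 0 (0.188%). The cofactor list, which supplies UDP-glucuronic acid, active sulfate and glutathione, had 6 of 7 genes tested and 0 past the thresholds, with 2 higher and 0 lower by adjusted p under ABBV-075, against 25% and 22.3% of all genes. Among other phase I enzymes (flavin monooxygenases, esterases, quinone reductases and others), 10 of 13 were tested, 0 passed the thresholds and 6 fell by adjusted p under ABBV-075, against the same 22.3%. Among other phase II enzymes (acetyl-, methyl- and microsomal glutathione transferases), 6 of 8 were tested, 0 passed, and 1 rose and 3 fell by adjusted p with ABBV-075, against 25% and 22.3%. The threshold backgrounds of the 7 comparisons ran from 0.00856% to 4.2%. Beside such shares, 0 past the thresholds in lists this short does not set their genes apart.

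Other hepatic drug transporters had 6 of 11 genes tested, and 3 fell past the thresholds with ABBV-075 (background 3.42%). They were SLC22A7, an organic anion transporter (log2 fold change -2.50, SE 0.27, adjusted p = 2.72e-08), SLCO2B1, an uptake transporter of organic anions (log2 fold change -2.09, SE 0.17, adjusted p = 7.8e-11), and ABCG2, an exporter of many drugs (log2 fold change -1.66, SE 0.28, adjusted p = 2.5e-05). The same 3 fell with ABBV-075 added to IFNγ (background 4.2%), with -2.77, -2.78 and -1.92. The markers of the set, SULT2A1, ABCC2 and ADH4, fell past the thresholds in both comparisons, 3 of 3 (backgrounds 3.42% and 4.2%). They were chosen with earlier results of these data known, so this count is descriptive only.

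Of 6 AHR targets, which respond to a xenobiotic sensor, 3 were tested. With ABBV-075, 0 passed the thresholds upward or downward (backgrounds 1.19% and 3.42%), and 1 rose and 0 fell by adjusted p (25% and 22.3%). With ABBV-075 added to IFNγ 1 fell past the thresholds (background 4.2%), CYP1A1 at -1.59, or -1.33 after GC correction, short of the size threshold. There 0 rose and 2 fell by adjusted p (26.2% and 27.3%). All 9 targets of NRF2 were tested, and 1 rose and 1 fell past the thresholds with ABBV-075 (backgrounds 1.19% and 3.42%). HMOX1, a heme-degrading enzyme, changed by -1.52 (SE 0.12, adjusted p = 3.63e-11), and by -1.37 after GC correction, short of the size threshold. After that correction the list's lower count was again 1, from another target. With IFNγ its value was -1.55. By adjusted p, 5 of the 9 rose and 2 fell with ABBV-075 alone, against 25% and 22.3% of all genes.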

How the data were processed

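Directional libraries of ribosomal RNA-depleted RNA were sequenced by the authors, and the submitters' processing notes name CASAVA 1.8.2, Trimmomatic 0.33, STAR 2.7.1, DESeq2 and the build hg38. The deposited files hold raw counts per gene symbol for each library, with no normalization, and no source used here names the gene models behind the counts. Reads on the strand of the gene (column 4) were used. Reads aligned to several places (56.0% to 69.4% of each library) and ambiguous reads (0.810% to 1.01%) name no single gene and were left out. Intervals on ratios of counts cover counting error only.

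All 24 libraries were fitted together in R 4.3.3 with edgeR 4.0.16 (filterByExpr, TMM, glmQLFit, glmQLFTest, group means without covariates). The SE was taken as the absolute log2 fold change over the root of F. There were 10 comparisons and 3 interactions. The fits were tested on simulated data. Alternatives were DESeq2 1.42.0, RLE and library size scaling, no filter, at least 10 counts in every library, both strands together, the compared groups alone, the replicate number as a block, a GC correction (lowess, span 0.3, on the GC content of the longest transcript) with and without that block, and each library left out. For the interactions, the scaling, filter, strand and GC alternatives were chosen after seeing the data.

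Symbols were matched to GENCODE 44, 23161 directly and 1384 through an older symbol, and all 130 members matched. Promoters are from RefSeq. Figures were drawn with Python 3.11.15 and matplotlib 3.10.9.

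The members and lists were chosen with earlier results of these data known. Members named in detail are the 3 markers, in each family up to 3 past the thresholds in any of 7 comparisons with the largest change and a mean of at least 5 CPM, and the member with the highest mean CPM, with those called in an interaction by adjusted p alone. Others are marked as named after their values were seen. Some genes of the lists and 1 promoter motif are not reported. The 15 lists are regulators, electron donors, cofactor supply, other phase I enzymes, other phase II enzymes, other transporters, AHR targets, NRF2 targets, BET inhibitor markers, interferon markers, hepatocyte, fibroblast, endothelial and leukocyte markers, and the 3 markers of the set. The replicates of a group differed by more than sampling noise (chi-square per degree of freedom 1.66 to 16.6), and no pair was identical.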

Additional observations from a re-analysis of the deposited data

Results flagged for a closer look

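The interaction test found 34 values where the effect of ABBV-744 on a member differed between cells with and without IFNγ, 20 at 50 nM and 14 at 500 nM, called by adjusted p alone. At 50 nM 7.41% of the tested members were higher and 29.6% lower, against 24% and 22.4% of all genes. At 500 nM the members' shares were 3.7% and 22.2%, against 15.9% and 12.5%. Each value is the log2 fold change with IFNγ minus that without. At 50 nM it was negative for ABCC6 (-0.43), AKR1A1 (-0.64), AKR1B1 (-0.46), AKR1C1 (-0.36), ALDH16A1 (-0.81), ALDH18A1 (-0.95), ALDH1B1 (-0.54), ALDH1L1 (-0.94), ALDH4A1 (-0.68), ALDH5A1 (-0.54), CYP1A1 (-1.14), CYP4F12 (-0.94), GSTK1 (-0.82), GSTM3 (-0.67), GSTM4 (-0.92) and SULT1A1 (-0.84). It was positive for ALDH1A1 (0.99), CYP4V2 (1.08), UGT2A3 (1.60) and UGT2B10 (1.09). At 500 nM it was negative for ABCC3 (-0.80), ABCC5 (-0.63), ABCC6 (-0.44), AKR1C1 (-0.38), ALDH18A1 (-0.98), CYP1A1 (-1.19), CYP4F12 (-1.32), GSTK1 (-0.55), GSTM3 (-0.55), GSTM4 (-0.96), SULT1A1 (-0.64) and SULT1C4 (-3.67), and positive for ALDH1A1 (0.70) and UGT2A3 (1.07).

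After GC correction 6 of the 20 and 5 of the 14 passed. In 12 fits with 1 library left out, 16 of the 20 values at 50 nM passed every time. Passing was lost in at least 1 of these fits for ABCC6 (values from -0.56 to -0.36), ALDH1L1 (-1.07 to -0.79), ALDH5A1 (-0.64 to -0.43) and CYP1A1 (-1.31 to -0.92). At 500 nM, 8 of the 14 passed every time, and passing was lost at least once for ABCC5 (-0.71 to -0.57), ABCC6 (-0.58 to -0.36), ALDH1A1 (0.48 to 0.84), CYP1A1 (-1.61 to -0.83), GSTM3 (-0.63 to -0.50) and SULT1A1 (-0.82 to -0.50).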

How the results depend on the processing

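Over 114 log2 fold changes of named members, 1970 values were computed under the alternatives. Of these, 1816 kept their direction and side of the threshold, 126 fell short of it, 20 newly passed it and 8 reversed. Outside the interactions, that threshold included the limit on size. A change smaller than this limit that lost its call by adjusted p was therefore counted among the 1816. AKR1C1 with ABBV-744 at 50 nM without IFNγ, after GC correction, is an example. The 1816 are thus not a count of calls by adjusted p that were kept. The 8 came with GC correction, alone and with the replicate block. UGT2B10 with ABBV-744 at 50 nM added to IFNγ became -0.28 in both fits and UGT2A3 -0.37 in both. The interaction of ABBV-744 at 50 nM with IFNγ became 0.14 for ABCC6 in both. For UGT2B10 the log2 fold change of the ABBV-744 50 nM by IFNγ interaction became -0.0347 with GC correction and -0.0309 in the GC correction with replicate block. For all of these and for the counts below the cause was not tested, apart from the filters, which test fewer genes.

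With at least 10 counts in every library, the members past the lower thresholds numbered 5 for ABBV-075, 0 for ABBV-744 at either dose, 6 for ABBV-075 with IFNγ (0 higher), 0 for ABBV-744 at either dose with IFNγ, 2 for ABBV-075 against ABBV-744 and 3 for that comparison with IFNγ. Fewer members and genes were tested under this filter, and no background is set beside these counts. DESeq2 gave 0 lower for ABBV-744 at 50 nM, 2 lower with IFNγ, 1 higher by adjusted p at 500 nM with IFNγ and 7 lower in the 500 nM interaction. RLE and library size scaling each gave 2 lower for ABBV-744 at 50 nM and 2 higher by adjusted p for ABBV-075 against ABBV-744, and library size scaling gave 10 and 7 lower in the interactions at 50 and 500 nM. Without a filter 2 members were lower for ABBV-744 at 50 nM with IFNγ. The compared groups alone gave 0 for that count, 1 higher by adjusted p at 500 nM with IFNγ and 0 higher by adjusted p for ABBV-075 against ABBV-744. Both strands together gave 1 higher by adjusted p at 500 nM with IFNγ. GC correction, with or without the replicate block, gave 0 lower for ABBV-744 at 50 nM, 2 lower with IFNγ, 9 lower past the thresholds and, by adjusted p, 3 higher for ABBV-075 against ABBV-744, 2 higher and 10 lower in the 50 nM interaction and 0 higher in the 500 nM interaction.

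With 1 library left out, the lower count ranged from 0 to 1 for ABBV-744 at 50 nM, from 1 to 3 for it with IFNγ and from 3 to 5 at 500 nM with IFNγ, where the higher count by adjusted p ranged from 0 to 2. The higher count by adjusted p for ABBV-075 against ABBV-744 ranged from 1 to 2, and the 500 nM interaction from 1 to 2 higher and from 7 to 16 lower.

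The replicate numbers did not pair the libraries, except possibly between the doses of ABBV-744, where no member was called either way. The measure was the correlation, between same-numbered libraries, of deviations in log2 CPM from the group mean, over the more abundant genes. Between these doses it was 0.39, 0.50 and 0.10, and its cause was not tested. The replicate block moved 1 count, to 2 higher by adjusted p for ABBV-075 against ABBV-744. Library size scaling moved the median of all genes in the 50 nM interaction from -0.12 to 0.05. At this depth, changes of members below 10 counts a library have wide intervals, and members at the floor could not be tested.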
